A study of Mus musculus with 4 samples.

Results

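The membrane adenylyl cyclase genes were examined in laser-captured cerebellar Purkinje cells: 8 genes, Adcy1, Adcy2, Adcy3, Adcy5, Adcy6, Adcy7, Adcy8 and Adcy9, with 20 probe sets out of 45037 on the array. A probe set was taken where the platform annotation gave it exactly 1 of these gene symbols. The samples came from intact, untreated male C57BL/6J mice, 8 weeks old, whose frozen cerebellum was cut on a sagittal plane. There was 1 group of 4 samples, 2 from animal 2 (samples 2-1 and 2-2) and 2 from animal 1 (samples 1-1 and 1-2). Whether both samples of an animal are separate captures is not stated, so a p-value between animals measures only the spread between these samples, which may be technical. The granule cell layer was not analysed here.

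Adenylyl cyclases make cyclic AMP (cAMP) from ATP when a receptor coupled to the stimulatory G protein Gs is active, and cAMP in turn activates protein kinase A (PKA). The isoforms differ in what else they read. Adcy1, Adcy3 and Adcy8 respond to calcium through calmodulin, Adcy2 and Adcy7 are stimulated by G protein beta-gamma subunits together with Gs, Adcy5 and Adcy6 are inhibited by calcium, and Adcy9 is known for its poor response to the drug forskolin. In the cerebellar cortex, cAMP and PKA are known for their part in synaptic plasticity of Purkinje cells and of the granule cell axons that contact them.

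Values are Affymetrix signals, 1 per probe set and array, given either as deposited on a linear scale or as quantile-normalized log2 signals. A level was compared with a background bound, set per array at the 95th percentile of 86 genes known from liver, pancreas, skin and other non-brain organs, and which lay between 5.63 and 5.93 on the log2 scale. Probe sets bind their targets unequally well, so the isoforms are not ranked against each other, and a probe set below the bound has no measured level here, which does not show that its gene is silent. In bulk captures, fewer cells of a type and less RNA per cell cannot be told apart. The median deposited signal of an array ran from 8.40 to 11.4. All 19 measured genes of a Purkinje cell marker list passed the bound on all 4 arrays, among them Calb1, Pcp2 and Pcp4, and Pcp2 was the only marker called between the animals (0.57 on the log2 scale, animal 2 less animal 1, limma, adjusted p = 0.0423). So did 14 of 18 Bergmann glia and astrocyte markers, 7 of 16 granule cell markers, 4 of 13 oligodendrocyte markers, 3 of 11 interneuron markers, 2 of 11 blood vessel markers and 1 of 12 microglia markers.

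Adcy1, Adcy2 and Adcy9 were above the bound on all 4 arrays. Adcy3 passed on 1 array, and Adcy5, Adcy6, Adcy7 and Adcy8 passed on none. The 3 genes of 8 (37.5%), each read at its brightest probe set, stood beside 28.3% of all 18193 named genes. By probe set, 4 of 20 (20%) passed on all 4 arrays, beside 17.4% of all probe sets, a share near that of the array as a whole. Of the other 16 probe sets, 2 passed on 1 array and 14 on none. With the bound at the 99th percentile, where 20.0% of named genes passed, Adcy9 alone was left, Adcy1 passed on 3 arrays and Adcy2 on 1.

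**Figure D1:**
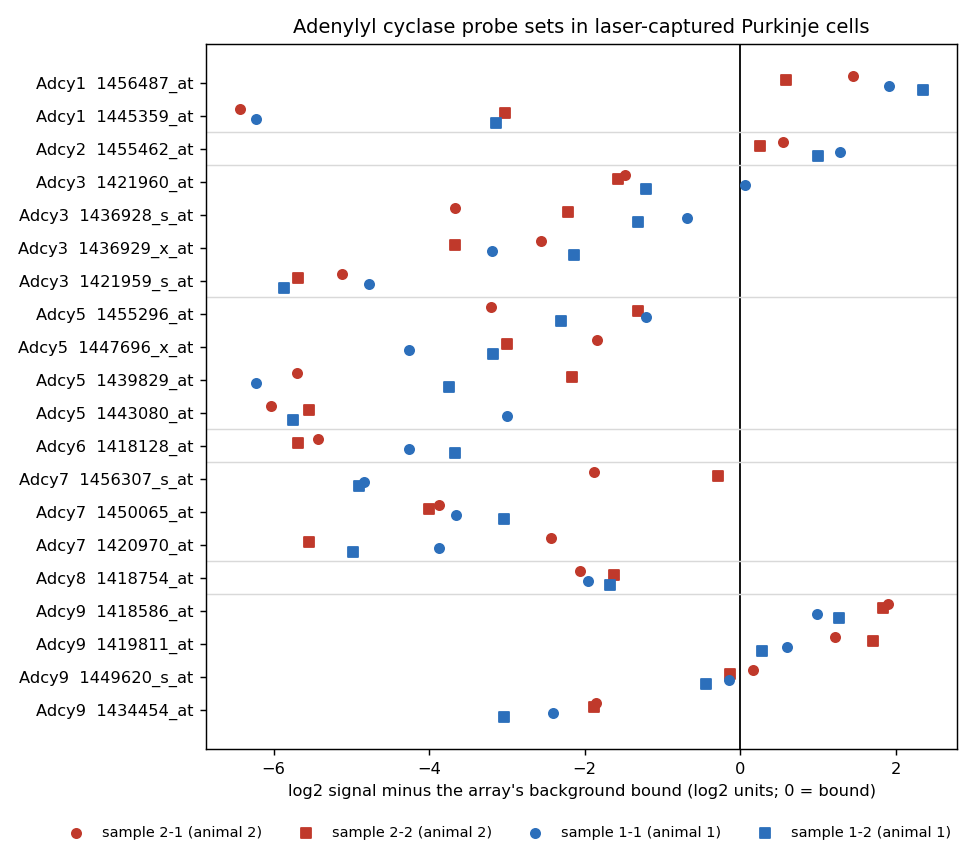
Each point is 1 array's quantile-normalized log2 signal of a probe set less that array's background bound, in log2 units, for the 20 adenylyl cyclase probe sets, with samples of animal 2 in red above samples of animal 1 in blue. Only Adcy1 1456487_at, Adcy2 1455462_at and the Adcy9 probe sets 1418586_at and 1419811_at lie right of the bound on all 4 arrays.

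The promoters of the members are shown because 4 of them, those of Adcy1, Adcy2 and Adcy9 among the genes above the bound and that of Adcy5 among the genes below it, hold 3 or more GC boxes, the letters GGGCGG or CCGCCC on the other strand. RefSeq windows of 300 bases (build GRCm38.p6), 250 before a transcript start and 50 after it, were found for 6 of the 8 members. Capitals mark GC boxes and the cAMP response element core TGACG, or CGTCA on the other strand, and overlapping matches count separately.
Adcy1 (chr11:7063183-7063482, + strand): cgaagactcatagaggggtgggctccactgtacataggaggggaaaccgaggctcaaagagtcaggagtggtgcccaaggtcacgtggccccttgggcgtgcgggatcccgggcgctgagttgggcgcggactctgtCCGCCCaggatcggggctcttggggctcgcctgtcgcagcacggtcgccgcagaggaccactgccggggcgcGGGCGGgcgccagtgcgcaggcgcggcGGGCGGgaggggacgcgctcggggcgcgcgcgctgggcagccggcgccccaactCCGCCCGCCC
Adcy2 (chr13:68999492-68999791, - strand): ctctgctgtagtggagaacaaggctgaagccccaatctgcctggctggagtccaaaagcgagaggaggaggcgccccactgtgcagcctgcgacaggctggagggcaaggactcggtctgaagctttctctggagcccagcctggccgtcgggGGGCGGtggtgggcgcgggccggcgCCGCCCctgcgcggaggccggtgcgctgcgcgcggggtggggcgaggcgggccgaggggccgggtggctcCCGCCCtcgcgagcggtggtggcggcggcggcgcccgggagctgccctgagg
Adcy9 (chr16:4420449-4420748, - strand): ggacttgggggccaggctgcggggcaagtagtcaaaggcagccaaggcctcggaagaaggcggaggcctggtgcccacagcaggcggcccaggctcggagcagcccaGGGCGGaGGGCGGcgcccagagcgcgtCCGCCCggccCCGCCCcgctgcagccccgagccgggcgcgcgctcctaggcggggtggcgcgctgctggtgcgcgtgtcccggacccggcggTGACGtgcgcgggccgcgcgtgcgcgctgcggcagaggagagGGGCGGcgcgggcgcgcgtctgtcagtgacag
Adcy5 (chr16:35154614-35154913, + strand): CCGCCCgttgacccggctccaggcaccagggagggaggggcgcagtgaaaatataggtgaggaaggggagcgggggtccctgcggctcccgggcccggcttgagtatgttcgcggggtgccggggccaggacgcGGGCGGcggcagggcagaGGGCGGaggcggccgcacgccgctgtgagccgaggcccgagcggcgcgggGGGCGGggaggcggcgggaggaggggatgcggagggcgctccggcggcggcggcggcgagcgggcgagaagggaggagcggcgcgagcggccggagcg

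The Adcy1 and Adcy9 windows hold 5 GC boxes each, that of Adcy5 holds 4 and that of Adcy2 holds 3. Of all 32851 promoter windows, 35.7% hold at least 1 GC box, 10.7% at least 3 and 5.49% at least 4. The windows of Adcy3 and Adcy7, genes with several windows each, hold 0 or 1. Adcy6 and Adcy8, both below the bound, had no window. RefSeq spans of some members reach upstream of their windows, that of Adcy9 to base 4437236 of chromosome 16. Not every transcript start is therefore covered. Adcy5, with 4 GC boxes, passed the bound on no array, and the count did not separate the genes above the bound from the others. A core is in the Adcy9 window and in 1 of the 3 Adcy7 windows, against 20.8% of all windows, and the full element TGACGTCA is in none of the members' windows, against 1.79% of all. These letter matches describe the windows and are not binding data.

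Of the calcium-stimulated isoforms, Adcy1 alone passed the bound on all 4 arrays. On 1456487_at its deposited signal was 168.9 in sample 2-1 and 100.7 in sample 2-2, against 190.0 in sample 1-1 and 221.5 in sample 1-2. Both samples of animal 2 were lower than both samples of animal 1, and sample 2-2 was the lowest. Its normalized log2 signal averaged 7.34 ± 0.86 (SD, n = 2 animals). The other Adcy1 probe set, 1445359_at, had deposited signals of 0.7 and 7.3 in animal 2 and of 0.7 and 5.5 in animal 1, below the bound on every array. The call of Adcy1 as above the bound therefore rests on 1 of its 2 probe sets, and with the median over a gene's probe sets Adcy1 was not counted.

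Adcy3, a cyclase best known from olfactory cilia and neuronal primary cilia, was read by 4 probe sets. The brightest, 1421960_at, had deposited signals of 19.7 and 20.5 in animal 2 and of 52.1 and 19.9 in animal 1. Sample 1-1 stood above the other 3 and was the only one above its bound, by 0.06 on the log2 scale. On 1436928_s_at the signals were 4.2 and 12.9 in animal 2, against 31.9 and 18.6 in animal 1, lower in both samples of animal 2 but below the bound throughout. The remaining probe sets, 1436929_x_at and 1421959_s_at, ran from 0.8 to 10.7. In the platform annotation the 4 probe sets rest on 2 source transcripts, so they are not independent readings, and probe sets ending in _s_at or _x_at can bind several transcripts.

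Adcy8, the other calcium-stimulated isoform, had 1 probe set, 1418754_at, with deposited signals of 13.3 and 19.8 in animal 2 and of 14.4 and 14.7 in animal 1. The samples of the animals overlapped, and each lay at least 1.62 below its bound on the log2 scale.

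Among the isoforms that beta-gamma subunits stimulate, Adcy2 was above the bound on its only probe set, 1455462_at. Its deposited signal was 89.9 and 80.1 in animal 2, against 120.6 and 85.4 in animal 1, so the animals overlapped on that scale. After normalization the log2 signals were 6.34 and 5.89 in animal 2 and 7.22 and 6.70 in animal 1, without overlap. Sample 2-2 passed its bound by 0.26, the smallest margin among the 4 probe sets that passed on all arrays. Adcy2 averaged 6.54 ± 0.60 (SD, n = 2 animals).

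Adcy7, the other isoform of this kind measured among the members and one known from blood cells and microglia, was below the bound on all 3 probe sets. On 1456307_s_at the deposited signal was 14.9 and 53.8 in animal 2, against 1.9 and 1.7 in animal 1. Sample 2-2 came within 0.29 of its bound, and both samples of animal 2 were higher than those of animal 1. The other probe sets, 1420970_at and 1450065_at, ran from 1.3 to 10.4, did not show that order, and share a source transcript. No size of difference is given, since no sample was above the bound. Of 12 microglia markers, 9 were below the bound on every array, and their summed signal was 173.6 and 189.6 in animal 2 and 400.7 and 277.7 in animal 1. By gene, 2 of the 12 were lower and 4 higher in both samples of animal 2 than in either of animal 1. The lower ones were Csf1r, which passed on all 4 arrays, and Ctss, which passed on 1. Of the higher ones, Trem2, Itgam and Tmem119 passed on none, and C1qb passed only in animal 2, by 0.01 and 0.06. The sum and the count of genes thus point opposite ways, but most of the higher genes had no measured level here.

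The calcium-inhibited isoforms gave no signal above the bound. Adcy5, the main cyclase of striatal neurons, had 4 probe sets. Its brightest, 1455296_at, had deposited signals of 6.0 and 24.9 in animal 2 and of 23.0 and 9.5 in animal 1, with 1 high and 1 low sample in each animal. The others ran from 0.7 to 15.3. Adcy6, a widely expressed isoform known from heart and kidney, had 1 probe set, 1418128_at, with signals of 1.3 and 1.2 in animal 2 and of 2.9 and 4.0 in animal 1, at least 3.67 below the bound.

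Adcy9 was the only member with more than 1 probe set above the bound on all arrays. On 1418586_at its deposited signal was 229.7 and 235.1 in animal 2, against 98 and 102.1 in animal 1. On 1419811_at it was 143.3 and 216.0 in animal 2, against 75.4 and 51.9 in animal 1. Both probe sets put both samples of animal 2 above both samples of animal 1. Their normalized log2 signals averaged 7.26 ± 0.45 and 6.71 ± 0.65 (SD, n = 2 animals). The probe set 1449620_s_at, with 67.9 and 60.5 in animal 2 and 45.3 and 32.7 in animal 1, passed on sample 2-1 only, and shares its source transcript with 1419811_at. On 1434454_at, with 15.2 and 16.5 in animal 2 and 10.4 and 5.9 in animal 1, Adcy9 was below the bound throughout. All 4 Adcy9 probe sets thus had higher deposited signals in both samples of animal 2, on a scale where most probe sets were higher in that animal. After normalization 1449620_s_at overlapped between the animals.

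Animal 2 was then set against animal 1 over the 11042 probe sets that passed the bound on 2 or more arrays. The labels give both animals the same strain, sex, age and lack of treatment. Of the 4 member probe sets tested, 0 were called by limma at an adjusted p under 0.05, and 1 had an unadjusted p under that value. Over all probe sets tested, 0.317% were called and 17.5% had an unadjusted p under 0.05. The Adcy1 log2 signal of animal 2 less that of animal 1 was -1.22 ± 0.43 (SE, n = 2 samples per animal, limma, adjusted p = 0.228), and that of Adcy2 -0.85 ± 0.45 (adjusted p = 0.379). For Adcy9 it was 0.64 ± 0.34 on 1418586_at (adjusted p = 0.378) and 0.92 ± 0.42 on 1419811_at (adjusted p = 0.319). All 4 had samples that did not overlap between the animals on the normalized scale, as did 49.2% of all probe sets tested. Without sample 2-1 the Adcy1 difference was -1.73 ± 0.33 and was called (adjusted p = 0.0287). In that fit sample 2-2 stands alone for animal 2, the residual spread comes from the animal 1 pair, and 856 probe sets were called instead of 35.

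**Figure D2:**
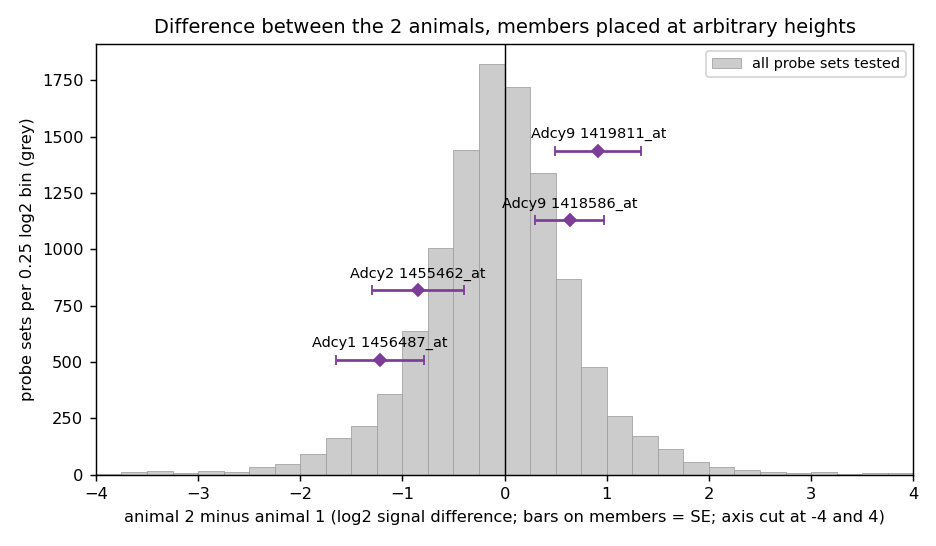
Grey bars count the 11042 tested probe sets by the log2 signal difference of animal 2 less animal 1, and 33 lie beyond the axis. Purple diamonds give the 4 tested cyclase probe sets with their SE, at arbitrary heights: Adcy1 (-1.22) and Adcy2 (-0.85) lie left of 0 and the Adcy9 probe sets (0.64 and 0.92) right of it.

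The direction of these 4 differences was the same under the 7 settings that change the estimate: values as deposited, median scaling, an offset of 16 and leaving out each of the 4 samples. Without normalization the tested probe sets had a median difference of 0.47, up in animal 2, and there Adcy1 stood at -0.65 ± 0.41 and Adcy2 at -0.26 ± 0.46, while Adcy9 stood at 1.22 ± 0.36 and 1.49 ± 0.47 (SE). None was called there, with adjusted p-values from 0.0853 to 0.753 by limma. Between samples of different animals, the median absolute log2 difference of the 4 probe sets was 0.69 to 1.09 over the 4 pairs, against 0.40 to 0.42 for all 7832 that passed the bound on each array. Within animal 2 that difference was 0.39 for the members, against 0.36 for all, and within animal 1 it was 0.36, against 0.22. The 4 probe sets had mean log2 signals of only 6.54 to 7.34, not far above the bound, and 2 of them read Adcy9. The 7832 were not matched to them in signal, so the larger differences cannot be read as a trait of the cyclases.

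Marker lists of other cells moved between the same samples. The summed normalized signal of 16 granule cell markers was 4500 and 5201 in animal 2, against 7179 and 7763 in animal 1. By gene, 9 of the 16 were lower and 1 higher in both samples of animal 2 than in either of animal 1. Snap25, a gene of this list, gave 2594.4 and 3549.1 of deposited sums of 4813.6 and 6693.6 in animal 2. In animal 1 it gave 2195.7 and 1977.5 of 6057.8 and 6671.9. Its normalized signals overlapped between the animals. Of the granule list, Slc17a7, Pax6, Zic2, Grin2c and Fat2 were below the bound on all arrays and none was listed at 0. The sum of 11 blood vessel markers was 534.6 and 481.8 in animal 2 and 803.1 and 848.2 in animal 1. Bergmann glia and astrocyte markers summed to 14890 and 13860 in animal 2 and to 16940 and 16490 in animal 1, and oligodendrocyte markers to 4723 and 3512 in animal 2 and to 5434 and 5225 in animal 1. The sum of 19 Purkinje cell markers was 98560 and 98120 in animal 2, against 91380 and 91500 in animal 1. The interneuron markers summed to 5186 and 5463 in animal 2 and to 4829 and 4885 in animal 1. Of the 11, 6 were below the bound on every array. As deposited, Gad1 alone gave 4982.8 and 6208.6 of interneuron sums of 5564.1 and 6976.4 in animal 2. In animal 1 it gave 3729.3 and 3658.5 of 4226.5 and 4218.3, so this sum mostly followed 1 gene. By gene, 4 Purkinje cell markers were lower and 10 higher in both samples of animal 2. The counts were 7 lower and 5 higher for Bergmann glia and astrocytes, and 5 lower and 4 higher for oligodendrocytes. They were 3 lower and 4 higher for interneurons, and 5 lower and 1 higher for vessels. Such counts include genes below the bound on every array, among them Mog, Olig2 and Flt1. Of all probe sets tested, 49.2% did not overlap between the animals, in either direction. Some sums depended on the scale. As deposited, Bergmann glia and astrocyte markers summed to 15986 and 17718 in animal 2, against 14405 and 14282 in animal 1. The granule, oligodendrocyte and microglia sums then overlapped between the animals, as did the Adcy2 signal. The part of these cells in the cyclase values was not tested.

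**Figure D3:**
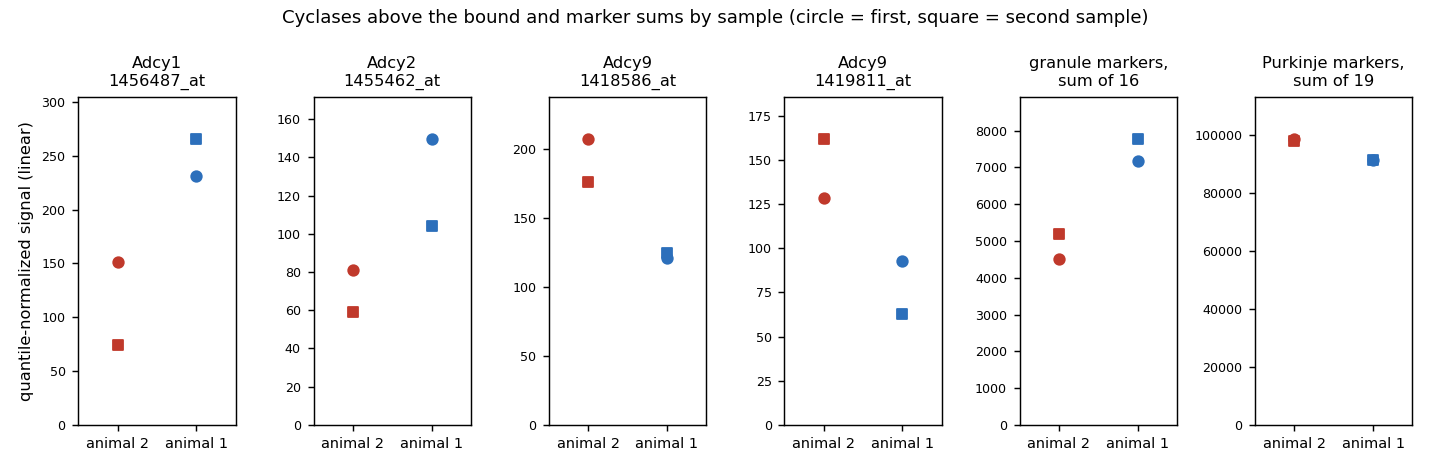
Quantile-normalized signals on a linear scale, from 0, for the 4 cyclase probe sets above the bound and for the summed granule and Purkinje cell markers, with animal 2 left of animal 1 and circles and squares for the first and second sample of each. On this scale Adcy1, Adcy2 and the granule sum are lower in both samples of animal 2, and both Adcy9 probe sets and the Purkinje sum are higher. Among sums not drawn, those of vessel, microglia, oligodendrocyte and Bergmann glia and astrocyte markers are also lower. That of interneuron markers is also higher. As deposited, the granule sums of the animals overlap.

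The rest of the cAMP pathway was read from 13 lists of 130 genes, of which 110 were measured. In all, 41 of 110 (37.3%) were above the bound on all 4 arrays, beside 28.3% of all named genes. Of the 110 genes, 20 passed on 1 to 3 arrays and 49 on none. Of their 263 probe sets 66 were tested between the animals and limma called 0, while 14 had an unadjusted p under 0.05, 9 higher and 5 lower in animal 2, beside 17.5% of all probe sets tested. Levels below are means of the normalized log2 signal ± SD over 2 animals at each gene's brightest probe set.

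Receptors that stimulate cyclases through Gs were above the bound on all arrays in 0 of 18 cases, and 15 passed on none. The other 3 were Gpr12, an orphan receptor, and Ptger2, a prostaglandin E2 receptor, which passed on 3 arrays each, and Adcyap1r1, the receptor of the neuropeptide PACAP, which passed on 1. Receptors that inhibit cyclases through Gi passed in 4 of 22 cases. They were the GABA-B receptor subunit Gabbr1 (11.63 ± 0.05), the glutamate receptor Grm7 (10.44 ± 0.34), the serotonin receptor Htr1b (8.99 ± 0.21) and, named after its value was seen, the cannabinoid receptor Cnr1. The counts of both receptor lists lay below the 28.3% of all named genes.

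G protein subunits were mostly above the bound. Both stimulatory alpha subunits passed: Gnas, which encodes Gs itself, at 10.46 ± 0.55, and Gnal, the olfactory and striatal form, at 9.0 ± 0.38. Gnas had log2 signals of 10.96 and 10.74 in animal 2 and of 10.10 and 10.04 in animal 1, a difference of 0.78 ± 0.145 (SE, limma, adjusted p = 0.0798). Gnal differed by -0.54 ± 0.22 on that probe set (adjusted p = 0.269) and by 1.65 ± 0.39 on 1442021_at (adjusted p = 0.130), opposite in sign. Of the inhibitory family, Gnai1 (12.82 ± 0.24), Gnao1 (9.15 ± 0.02), Gnai2 (7.74 ± 0.48) and Gnai3 (7.13 ± 0.26) passed on all arrays and Gnaz on 3. Beta and gamma subunits passed in 8 of 14 cases, led by Gng13 (13.38 ± 0.15), a gamma subunit also on the Purkinje cell marker list, Gnb1 and Gng4 (9.34 ± 0.23). Gnb1 had log2 signals of 10.01 and 9.87 in animal 2 and of 10.11 and 10.01 in animal 1.

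Downstream of cAMP, 5 of 6 PKA subunits were above the bound on all arrays. The catalytic subunit Prkaca stood at 10.86 ± 0.05, and the regulatory subunits at 10.64 ± 0.18 (Prkar1b), 9.50 ± 0.63 (Prkar1a), 8.23 ± 0.58 (Prkar2b) and 7.08 ± 0.11 (Prkar2a). The catalytic subunit Prkacb passed on 2 arrays. PKA inhibitor genes Pkia (9.53 ± 0.03) and Pkig (7.99 ± 0.68) passed and Pkib did so on 1 array. PKA anchoring genes passed in 6 of 11 cases, including Akap6 (10.33 ± 0.17), Akap11 (9.58 ± 0.23) and Akap2 (7.96 ± 0.60). Phosphodiesterases, which break cAMP down, passed in 6 of 15 cases, and the 3 brightest were Pde1c, activated by calmodulin (8.83 ± 0.39), Pde4d, specific for cAMP (8.63 ± 0.35), and Pde2a, activated by cGMP (8.55 ± 0.90). Pde2a differed between the animals by -1.28 ± 0.33 on 1447707_s_at and by 0.47 ± 0.47 on 1447708_x_at (SE, limma, adjusted p = 0.149 and 0.654).

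Other targets of cAMP were seldom above the bound. The exchange factor Rapgef3 and the channel genes Hcn2 and Hcn3 were below it on all arrays. Of the CREB family and its coactivators, the transcription factor Creb1 passed on all arrays (7.60 ± 0.35), Crem on 3, Crtc1 on 2, Crtc3 on 1 and Crtc2 on none. Among regulators of cyclases and their G proteins, Snx13 (10.58 ± 0.26), the G alpha chaperone Ric8a (9.25 ± 0.11) and the calmodulin-dependent kinase Camk4 (7.54 ± 0.47) passed on all arrays, and Ric8b on 1. The cyclases outside the 8 members, the membrane isoform Adcy4 and the soluble Adcy10, were below the bound on every array.

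**Figure D4:**
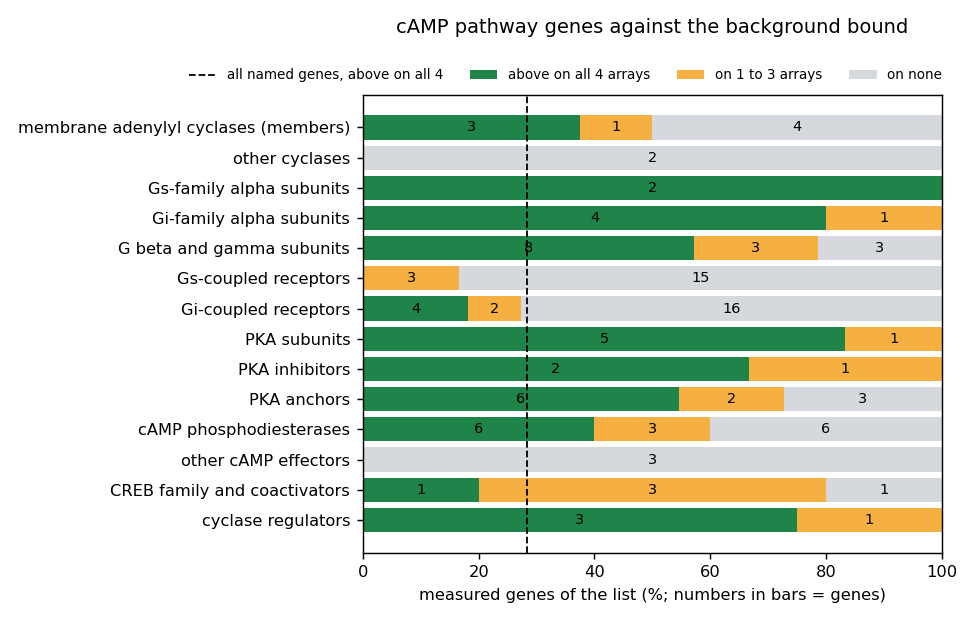
Bars give, for each list of cAMP pathway genes, the percent of measured genes above the background bound on all 4 arrays (green), on 1 to 3 (orange) and on none (grey), with gene counts inside. The dashed line marks the 28.3% of all named genes above the bound on all 4 arrays; the members stand at 3 of 8, the Gs-coupled receptors at 0 of 18 and the PKA subunits at 5 of 6.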

How the data were processed

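The authors deposited linear intensity values. The submitters' processing notes name GCOS, whose version, algorithm and scaling target were not found in the sources. Per the labels' protocols, about 1 ng of RNA was amplified in a two-cycle procedure. No detection calls, scanner files or scan dates were used, so scan batches were not tested. Columns of other samples numbered 0. The number of arrays limits the precision.

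The members and lists were chosen with earlier results of these data known. From the 45101 probe sets, 64 controls were left out, signals were floored at 0.1, log2 was taken and, because the arrays' trimmed means differed by 46.6% (more than 5%), values were quantile-normalized in limma 3.58.1 (R 4.3.3). The platform annotation gave gene names: 34945 had 1 symbol, 932 several and 9160 none; all 20 member probe sets matched RefSeq by gene identifier. Of a 93-gene background list, 86 genes were measured. A gene was read at its brightest probe set by mean. Animals were compared by limma's moderated test (lmFit, eBayes with trend), 2 residual degrees of freedom and Benjamini-Hochberg adjustment over all probe sets tested. These steps were checked on simulated data with independent noise per sample. Technical repeats within an animal were not simulated. Named were all members, all genes of lists of up to 7 genes, the 3 brightest of longer lists, and any called gene. No gene was named for a pattern like that of a member, since 4 samples are too few. The alternatives were other bounds, scalings, filters, probe set rules, an offset of 16, no trend, a replicate block and leaving out each sample.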

Additional observations from a re-analysis of the deposited data

Results flagged for a closer look

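In 4 of 65 sets of 4 samples, 1 sample stood apart from the other 3, its gap to the nearest a large share of the whole range of log2 signals (Dixon's test at the 95% level). Chance flags about 1 in 20 such sets. For Adcy5 on 1443080_at the ratio was 0.894, with sample 1-1 highest and all samples below the background bound. For Adcy8 on 1418754_at it was 0.857, with sample 2-1 lowest and all again below the bound. For Creb1 on 1452901_at it was 0.941, with sample 2-1 highest, and for Gabbr1 on 1455021_at 0.844, with sample 2-1 highest. The ratio does not give the size of a gap. Log2 signals ran from 11.58 to 11.73 for Gabbr1 and from 3.73 to 4.02 for Adcy8. They ran from 7.33 to 8.34 for Creb1 and from -0.25 to 2.94 for Adcy5.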

How the results depend on the processing

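Adcy1, Adcy2 and Adcy9 were the 3 genes above the bound on values as deposited, with median scaling, with the 90th percentile as the bound, with 2 arrays enough, without probe sets for several transcripts and without any 1 sample. With the 99th percentile 1 gene (Adcy9) and 1 probe set were counted, and with the median over probe sets 2 genes, Adcy2 and Adcy9. Member probe sets called between the animals numbered 0 under each planned setting with all 4 samples and from 0 to 1 when a sample was left out, the 1 being Adcy1 without sample 2-1. The count over all probe sets, added after seeing the data, moved far more, from 35 to 594 on values as deposited (585 higher in animal 2, against 24 of the 35), 63 with median scaling, 55 with an offset of 16, 5 with no filter on dim probe sets, 181 where passing on all arrays was required for testing, 0 with no mean-variance trend and from 2 to 1047 without 1 sample. Where a sample is left out, the other animal's pair alone gives the spread; otherwise the cause was not tested. With the second number of the sample name as a replicate block 261 were called and 0 members. Those numbers only name samples, and same-numbered samples did not deviate together (r = -0.02 across 7832 probe sets, which are not independent). Cyclic AMP pathway genes above the bound numbered 32 with the 99th percentile, where 20.0% of named genes passed, and 41 as deposited. No count model or depth applies to arrays, and signals below the bound limit what can be said of 5 of the isoforms.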
